A study of Mus musculus with 8 samples.

Results

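FXR, the nuclear receptor for bile acids, and the genes through which the gut responds to bile acids and moves them were examined in crypts of mice with colitis, with and without cholic acid. The 7 genes were Nr1h4, which encodes FXR, its targets Nr0b2 and Fgf15, the efflux transporter subunit genes Slc51a and Slc51b, the binding protein gene Fabp6 and the uptake transporter gene Slc10a2. They were chosen by name, and each matched 1 of the 34745 genes of the tables. All 8 libraries came from crypts, the glands of the intestinal epithelium, of wild-type mice on the C57BL/6 background on day 5. All mice received dextran sulfate sodium (DSS), a polymer that damages the gut lining and induces colitis: 4 libraries had DSS alone, and 4 had DSS with cholic acid, a primary bile acid (DSS_CA). The sources used here give neither the dose or route of either agent, nor the gut segment, nor whether replicates were separate mice, so the p-values measure only the spread between these libraries, which may be technical.

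Bile acids made in the liver are taken up from the lumen of the ileum by the sodium-dependent transporter ASBT (Slc10a2), carried through the enterocyte by the ileal bile acid binding protein (Fabp6) and released at the basolateral side by the OSTα-OSTβ heterodimer (Slc51a and Slc51b). Inside the cell they activate FXR, which pairs with the retinoid X receptor on DNA and induces Fgf15, Fabp6, both OST genes and Nr0b2. FGF15 is a hormone that travels to the liver and lowers bile acid synthesis there, and SHP, the product of Nr0b2, is a corepressor without a DNA-binding domain.

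FXR binds best to an inverted repeat of the hexamer AGGTCA with 1 base between the copies (AGGTCANTGACCT, which reads the same on both strands). This motif was searched in RefSeq promoter windows on GRCm38.p6, from 250 bases before to 50 after the transcript start, which 6 of the 7 genes matched. Among 32851 such windows of all genes, 1.14% held the motif with at most 2 mismatches at its 12 fixed letters and 11.4% with at most 3. The 2 promoters below are shown because Fabp6 and Slc51b carry near matches, in capitals, and are known FXR targets. The Fabp6 window (chr11:43601513-43601812, minus strand) held 2 matches with 2 mismatches each, beginning 222 and 142 bases before the start, and the Slc51b window (chr9:65422724-65423023, minus strand) held 1 match with 3 mismatches, beginning 187 bases before the start.
Fabp6: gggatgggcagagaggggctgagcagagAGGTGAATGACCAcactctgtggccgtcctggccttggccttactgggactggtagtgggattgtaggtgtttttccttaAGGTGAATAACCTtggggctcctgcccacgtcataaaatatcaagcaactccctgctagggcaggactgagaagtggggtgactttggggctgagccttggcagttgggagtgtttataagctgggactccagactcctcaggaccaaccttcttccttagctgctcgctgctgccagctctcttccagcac
Slc51b: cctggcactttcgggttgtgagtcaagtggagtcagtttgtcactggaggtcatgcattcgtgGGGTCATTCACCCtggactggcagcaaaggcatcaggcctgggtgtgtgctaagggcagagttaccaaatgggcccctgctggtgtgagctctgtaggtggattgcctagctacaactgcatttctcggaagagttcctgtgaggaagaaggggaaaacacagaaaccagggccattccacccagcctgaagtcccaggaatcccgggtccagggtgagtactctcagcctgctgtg

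The closest match of Slc51a, AGGACTTTGTCCT at chr16:32487946-32487958, also had 3 mismatches. In Nr0b2, Nr1h4 and Slc10a2 the closest match had 4, as 56.4% of all windows had or bettered. The Nr1h4 window (chr10:89506609-89506908) lay inside the gene, which begins at 89533585 on the minus strand, so the promoter there was not searched. The Nr0b2 window (chr4:133553126-133553425, plus strand) is shown because it held the letters TCAAGG, with which binding sites of the nuclear receptor LRH-1 begin, 68 and 35 bases before the start (in capitals). Searched on both strands, TCAAGG was in 14.4% of all windows and the single hexamer AGGTCA in 16.3%, among the latter those of Nr1h4, Slc51a and Slc51b. These matches describe the letters and were not tested for binding.
Nr0b2: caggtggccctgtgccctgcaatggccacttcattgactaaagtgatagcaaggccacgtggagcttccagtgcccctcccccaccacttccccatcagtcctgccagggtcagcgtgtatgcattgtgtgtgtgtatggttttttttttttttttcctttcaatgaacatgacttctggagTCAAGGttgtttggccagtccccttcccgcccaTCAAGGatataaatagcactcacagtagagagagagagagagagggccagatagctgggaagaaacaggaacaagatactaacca

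Total counts lay between 13334012 and 17973196 per library. The mean length of a counted gene, weighted by its counts, was 1423 to 1448 bases in DSS 2, DSS 3 and DSS_CA 3 and 1719 to 2412 bases in the other 5 libraries. DSS 4 lay close to a weighted mean of the 3 other DSS libraries (weights 0.469, 0.297 and 0.233), with a median difference of 5.73% over 6265 genes above 20 CPM. The same difference was 36.1% to 52.3% for DSS 1 to 3 and 8.73% to 70.7% in the DSS_CA group, where DSS_CA 2 and DSS_CA 4 were lowest. Whether DSS 4 is independent of them was not tested, and the leading results are also given without DSS 4 and DSS_CA 4. Gene levels are given as CPM, a gene's counts relative to a library total that was scaled by TMM, a correction for differences in library composition. Genes were tested with edgeR where the deposited FPKM (counts scaled by gene length and library total) reached 1 in at least 4 libraries, which left 9913 genes, and all 7 bile acid genes passed.

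The labels name crypts but no gut segment, and segment markers were examined. Besides the ileal genes Fabp6 and Slc10a2, the crypts expressed Gata4, a transcription factor of the proximal small intestine, at 50.9 ± 19.8 CPM with DSS alone and 70.3 ± 30.6 CPM with cholic acid added (SD, n = 4), and lactase (Lct) at 864 ± 339 and 496 ± 277 CPM. Cubn and Amn, whose products form the ileal receptor for vitamin B12, were at 210 ± 144 and 107 ± 46.0 CPM in DSS and 85.5 ± 44.1 and 74.3 ± 26.9 CPM in DSS_CA. The colon gene Car1 had no count in any library, which allows up to 3 counts in all, and Hoxb13 had 2 counts in DSS and 0 in DSS_CA. Markers of proximal and of distal small intestine were thus present together, and colon markers were near 0. Of 8 markers of distal small intestine outside the 7 genes, Cubn and Amn included, 8 had fitted changes below 0 and 0 were called, with a median of -0.52. Of 10 markers of proximal small intestine, Gata4 and Lct included, 6 were above 0, 4 below and 0 called, with a median of 0.29. Of all 9913 tested genes, 5142 were above 0. A difference in segment between the groups was not tested. The liver gene Alb had 2 counts in DSS and 7 in DSS_CA. Markers of stem and proliferating cells summed to 541 to 1922 CPM in DSS and 508 to 917 CPM in DSS_CA. Those of absorptive enterocytes summed to 39439 to 80229 and 35724 to 99321 CPM. How much of each library came from crypt cells was not tested.

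Of the 7 genes, none passed an adjusted p of 0.05, at which 0.131% of all tested genes were called (4 higher and 9 lower in DSS_CA). Fgf15 and Nr0b2 had every DSS_CA library above every DSS library in scaled CPM, as had 3.24% of all genes. The same 2 genes had an unadjusted p below 0.05 and were higher in DSS_CA, which held for 2.97% of all genes. The median log2 fold change was 0.62 over the 7 genes, the value of Slc51b, and 0.02 over all genes tested. Without DSS_CA 3 the median over the 7 genes was -0.00735. In these bulk samples, fewer cells of a type and less RNA per cell cannot be told apart.

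**Figure D1:**
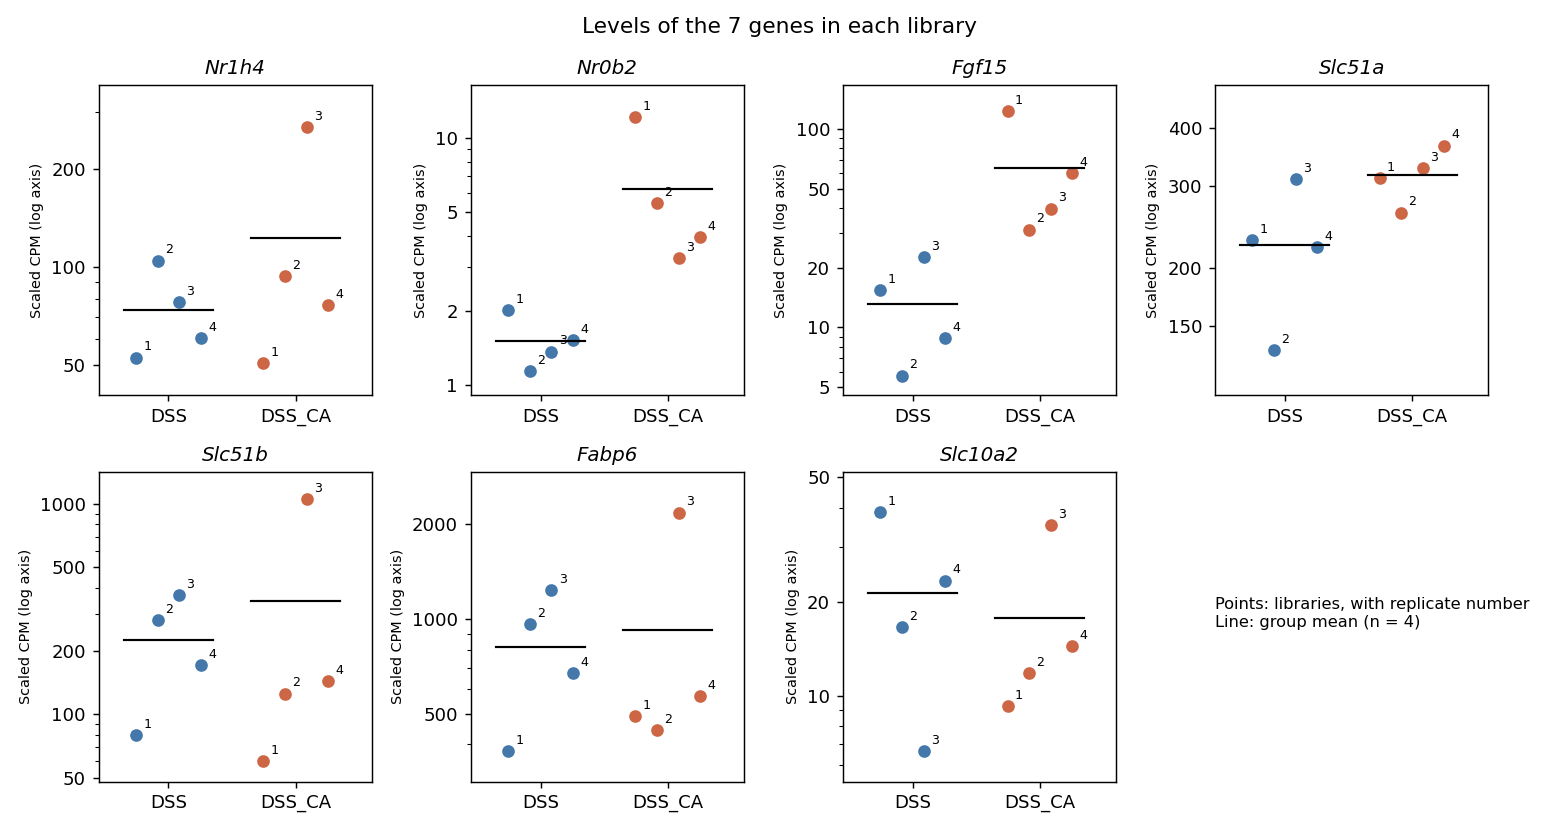
Scaled CPM (log axes) of each gene in the 4 DSS and 4 DSS_CA libraries, with replicate numbers beside the points and lines at the group means. The groups do not overlap for Fgf15 and Nr0b2, and DSS_CA 3 is the highest DSS_CA library for Nr1h4, Slc51b, Fabp6 and Slc10a2.

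The receptor gene Nr1h4 (ENSMUSG00000047638, chromosome 10 from 89454234 to 89533585, minus strand) was at 52.6, 105, 78.1 and 60.3 CPM in DSS 1 to 4 and at 50.5, 93.8, 269 and 76.3 CPM in DSS_CA 1 to 4. In scaled CPM the groups overlapped, and 3 of the DSS_CA libraries lay within or just below the DSS range while DSS_CA 3 lay above it. This depended on the scaling. In deposited FPKM the DSS libraries lay between 19.1 and 24.1, and DSS_CA 1 to 4 were at 20.5, 34.2, 62.4 and 27.7. DSS_CA 2, DSS_CA 3 and DSS_CA 4 were there above every DSS library. The log2 fold change was 0.73 (SE 0.488, 95% interval -0.34 to 1.80, adjusted p = 0.869), and -0.00735 without DSS_CA 3.

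Fgf15 (ENSMUSG00000031073, chromosome 7 from 144896532 to 144900953, plus strand), the hormone gene, was the member with the largest difference. It was at 15.5, 5.72, 22.7 and 8.85 CPM in DSS 1 to 4 and at 123, 31.1, 39.7 and 60.1 CPM in DSS_CA 1 to 4. The lowest DSS_CA library stood above the highest DSS library, and DSS_CA 1 was the highest of all. The means were 13.2 ± 7.52 and 63.6 ± 41.6 CPM, a 4.82-fold difference (log2 fold change 2.27, SE 0.530, 95% interval 1.11 to 3.43, unadjusted p = 0.00121, adjusted p = 0.125 by edgeR). The raw counts behind these values were 75 to 298 in DSS and 388 to 2334 in DSS_CA, so counting error is small beside the spread between libraries. In deposited FPKM the groups did not overlap either, at 2.31 to 10.4 and 16.1 to 87.7. With each library left out in turn the log2 fold change lay between 1.73 (without DSS_CA 1) and 2.66 (without DSS 3), with adjusted p from 0.0567 to 0.402, and it was 2.10 without DSS 4 and DSS_CA 4 (adjusted p = 0.796). It passed the threshold with DESeq2 (adjusted p = 0.00153) and with no filter on low genes (adjusted p = 0.0356).

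Nr0b2 (ENSMUSG00000037583, chromosome 4 from 133553376 to 133556536, plus strand), the corepressor gene, was scarce. DSS 1 to 4 held 33, 15, 18 and 27 counts of it and DSS_CA 1 to 4 held 229, 86, 32 and 73, or 2.01, 1.14, 1.37 and 1.52 against 12.1, 5.44, 3.27 and 3.98 CPM. DSS_CA 1 was highest here too. The means of 1.51 ± 0.368 and 6.20 ± 4.04 CPM differed 4.09-fold (log2 fold change 2.03, SE 0.471, 95% interval 0.999 to 3.06, unadjusted p = 0.00114, adjusted p = 0.119). The gap between the groups depended on the scaling: in deposited FPKM, which divides by the total count, DSS 1 at 2.16 lay above DSS_CA 3 at 2.12. Left-out libraries moved the log2 fold change between 1.48 (without DSS_CA 1) and 2.24 (without DSS_CA 3), and the call passed without DSS_CA 3 (adjusted p = 0.0474) and with DESeq2 (adjusted p = 0.00464). Without DSS 4 and DSS_CA 4 the adjusted p was 0.749 at a log2 fold change of 2.15.

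Set against their receptor Nr1h4 per gene length, the targets did not separate the groups. The ratio of Fgf15 to Nr1h4 in FPKM across DSS 1 to 4 was 0.514, 0.0955, 0.507 and 0.257, and across DSS_CA 1 to 4 it was 4.27, 0.580, 0.258 and 1.38. DSS_CA 3, with the highest Nr1h4, fell among the DSS libraries, and the other 3 lay above them. The ratio of Nr0b2 to Nr1h4 overlapped too, from 0.0305 to 0.107 in DSS and from 0.0339 (DSS_CA 3) to 0.669 (DSS_CA 1) in DSS_CA. Set against Slc51a instead, Fgf15 did separate them: that ratio was 0.0352 to 0.0646 over the DSS libraries and 0.105 to 0.350 over the DSS_CA libraries.

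The products of the efflux transporter genes form 1 transporter, and their levels varied to different degrees between libraries. Slc51a (ENSMUSG00000035699, chromosome 16 from 32475522 to 32487879, minus strand), the α subunit, was at 229, 133, 311 and 222 CPM in DSS 1 to 4 and at 312, 263, 327 and 366 CPM in DSS_CA 1 to 4. All 4 DSS_CA libraries lay above 3 of the DSS libraries, and DSS 3 overlapped with them. The log2 fold change of 0.50 (SE 0.316, 95% interval -0.19 to 1.195, adjusted p = 0.843) stayed between 0.32 and 0.70 with any 1 library left out, and the DSS_CA libraries differed by no more than 1.39-fold. Slc51b (ENSMUSG00000053862, chromosome 9 from 65412753 to 65422773, minus strand), the β subunit, was at 79.9, 281, 369 and 171 CPM in DSS 1 to 4 and at 59.8, 125, 1055 and 144 CPM in DSS_CA 1 to 4, a 17.6-fold range within the DSS_CA group. DSS_CA 3 alone lifted the mean of its group above that of DSS. The log2 fold change was 0.62 (SE 0.802, 95% interval -1.14 to 2.38, adjusted p = 0.976) with all libraries and -1.04 without DSS_CA 3 (adjusted p = 0.384).

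The Slc51b to Slc51a ratio in FPKM across DSS 1 to 4 was 1.14, 6.91, 3.89 and 2.52, and across DSS_CA 1 to 4 it was 0.629, 1.56, 10.6 and 1.28. The groups overlapped, and the 3 highest ratios belonged to DSS_CA 3, DSS 2 and DSS 3, the libraries with the shortest counted genes. Slc51b, with a gene length of 488 bases implied by the tables, is shorter than Slc51a with 1600 bases, and the part of gene length in the ratio was not tested. The ratio of Fabp6 (479 bases) to Slc51a was also highest there, from 13.3 to 24.1 in those 3 libraries and from 5.20 to 10.1 in the other 5.

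**Figure D2:**
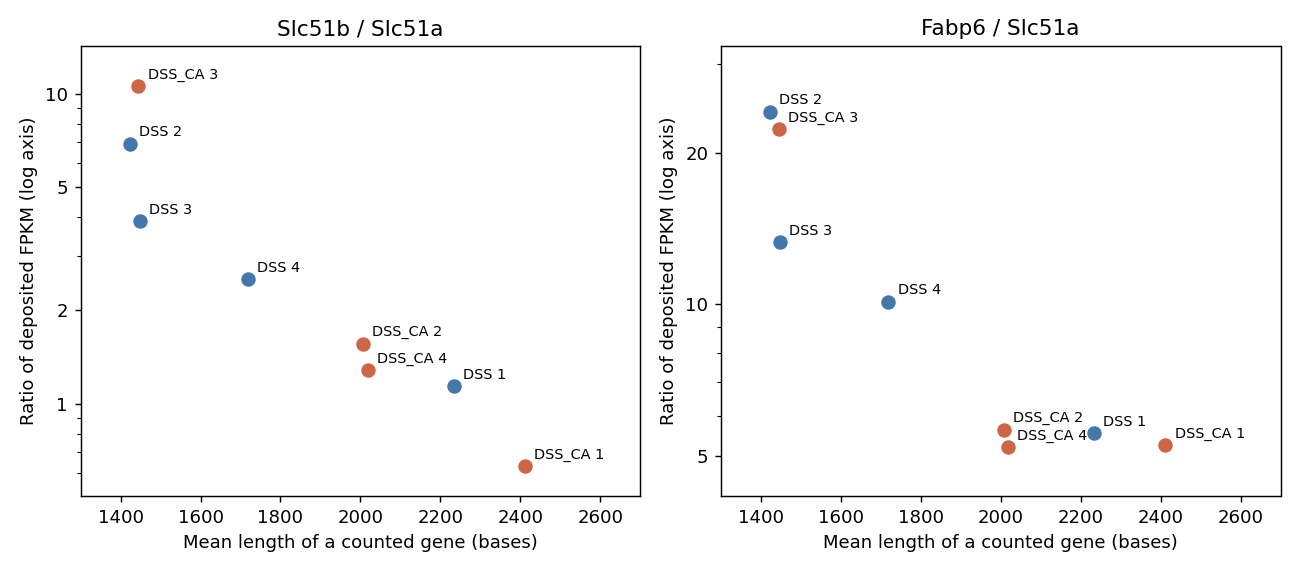
Ratio of deposited FPKM (log axis) of Slc51b to Slc51a and of Fabp6 to Slc51a against the mean length of a counted gene in bases, 1 point per library, DSS in blue and DSS_CA in orange. Both ratios are highest in DSS 2, DSS 3 and DSS_CA 3, at 1423 to 1448 bases, and the groups overlap.

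Fabp6 (ENSMUSG00000020405, chromosome 11 from 43596049 to 43601540, minus strand) was the most abundant of the 7 genes per length. It was at 380, 963, 1234 and 673 CPM in DSS 1 to 4 and at 491, 444, 2181 and 570 CPM in DSS_CA 1 to 4. Apart from DSS_CA 3 the DSS_CA libraries lay inside the DSS range, in the lower part of it. The log2 fold change was 0.18 (SE 0.566, 95% interval -1.06 to 1.42, adjusted p = 0.999), and -0.70 without DSS_CA 3. A difference in Fabp6 of up to 2.68-fold upward or 2.08-fold downward lies within the interval.

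Slc10a2 (ENSMUSG00000023073, chromosome 8 from 5085623 to 5105232, minus strand), the uptake transporter gene, was the only one of the 7 with a log2 fold change below 0. It was at 38.7, 16.6, 6.62 and 23.3 CPM in DSS 1 to 4 and at 9.24, 11.8, 35.2 and 14.4 CPM in DSS_CA 1 to 4. DSS 1 and DSS_CA 3 were high in their groups, DSS 3 was lowest of all, and the groups overlapped widely. The log2 fold change was -0.28 (SE 0.543, 95% interval -1.47 to 0.91, adjusted p = 0.996), turned to 0.18 without DSS 1, and was -1.43 (adjusted p = 0.0357) without DSS 2, DSS 3 and DSS_CA 3, which left 2 libraries against 3.

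**Figure D3:**
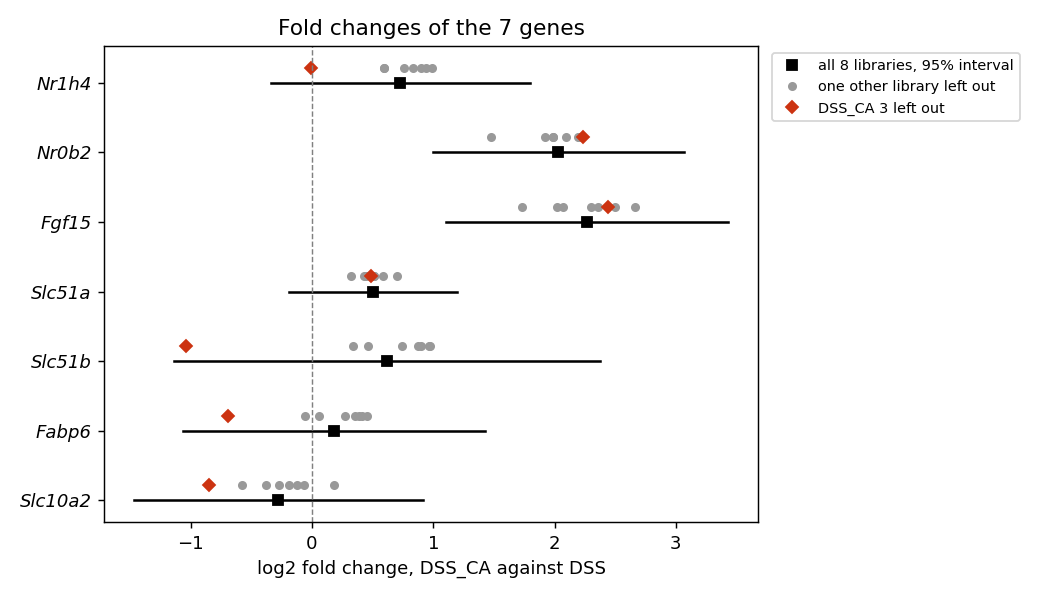
Log2 fold change of DSS_CA against DSS for each gene with all 8 libraries (black squares, with 95% intervals) and with 1 library left out (grey circles; red diamonds without DSS_CA 3). The intervals of Fgf15 and Nr0b2 lie above 0, and leaving out DSS_CA 3 moves Slc51b from 0.62 to -1.04.

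Uptake and carriage were far apart in level. Per length, Fabp6 was at 1490 ± 478 FPKM in DSS and 1773 ± 1053 in DSS_CA, and Slc51b followed at 398 ± 176 and 594 ± 665. Slc51a was at 133 ± 50.5 and 213 ± 53.1 FPKM, Nr1h4 at 21.0 ± 2.20 and 36.2 ± 18.3, and Slc10a2 at 13.5 ± 11.2 and 10.4 ± 3.80. Fabp6 was above Slc51b, and Slc51a above Nr1h4, in 8 of 8 libraries, whereas Slc51b was above Slc51a in 7. Fgf15, at 6.98 ± 4.05 FPKM in DSS, ranked below Nr1h4 in 4 of 4 DSS libraries and below Slc10a2 in 3, within the spread of both it and Slc10a2. In DSS_CA, at 40.4 ± 32.9 FPKM, it was above Slc10a2 in 4 of 4 libraries and above Nr1h4 in DSS_CA 1 and DSS_CA 4. Nr0b2 was lowest on average in both groups, at 1.31 ± 0.619 and 6.36 ± 5.12 FPKM.

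Among 30 partners and regulators of FXR (retinoid X receptors, coactivators, corepressors and enterocyte transcription factors), 29 were tested, 0 were called in either direction, and the median log2 fold change was -0.08. Of these, 13 were above 0 and 16 below. Rxra, an RXR gene, averaged 96.4 CPM with DSS alone and 94.8 CPM with cholic acid added, a log2 fold change of -0.02. Those with the smallest p were Ppargc1a, a coactivator of nuclear receptors, at 43.6 ± 15.8 and 21.6 ± 5.54 CPM (log2 fold change -1.01, adjusted p = 0.376), Malrd1, whose product Diet1 promotes the release of FGF15 from enterocytes, at 196 ± 108 and 103 ± 10.3 CPM (-0.92, adjusted p = 0.623), and Gata6, a transcription factor, at 51.5 ± 14.4 and 76.8 ± 2.66 CPM (0.58, adjusted p = 0.669). Malrd1 and Fgf15 thus had fitted differences of opposite sign. None of the 3 passed.

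Of 28 further genes reported as FXR targets in gut or liver, 18 were tested and 0 called, with 8 above 0, 10 below and a median of -0.07. The list pooled these genes whether FXR induces or represses them, so the signs do not show a direction of FXR activity. The 3 of them with the smallest p had fitted changes below 0. Nos2, the inducible nitric oxide synthase, was at 133, 30.2, 28.8 and 92.6 CPM in DSS 1 to 4 and 19.9, 11.8, 12.5 and 27.6 CPM in DSS_CA 1 to 4. Every DSS_CA library lay below every DSS library in scaled CPM, as for 279 of 9913 tested genes. The gap was narrow, 27.6 CPM in DSS_CA 4 against 28.8 CPM in DSS 3, and depended on the scaling. The log2 fold change of Nos2 was -1.98 (SE 0.529, adjusted p = 0.182). Apoc3, an inhibitor of lipoprotein lipase, was at 612 ± 262 and 240 ± 63.6 CPM (-1.35, adjusted p = 0.248). Ang4, an antimicrobial protein of Paneth cells, was at 888 ± 540 and 279 ± 146 CPM (-1.67, adjusted p = 0.364), beside a summed level of 7 Paneth cell markers, Ang4 included, of 6530 to 38992 CPM in DSS and 4859 to 17702 CPM in DSS_CA. The part of Paneth cells in this difference was not tested. The synthesis genes Cyp7a1 and Cyp8b1 had 0 counts in all libraries.

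Of 32 genes of other bile acid receptors, transport and metabolism, 21 were tested, 0 were called, and the median was -0.01, with 10 above 0 and 11 below. The smallest p belonged to Acox2, the peroxisomal oxidase that shortens the side chain of bile acid precursors. It was at 5.67, 4.12, 12.1 and 5.81 CPM in DSS 1 to 4 and 25.9, 21.3, 15.5 and 35.7 CPM in DSS_CA 1 to 4. The groups did not overlap, as for 3.24% of all tested genes. The log2 fold change was 1.83 (SE 0.403, adjusted p = 0.106). Amacr, the racemase of the same pathway, was at 11.9 ± 3.89 and 22.7 ± 3.02 CPM (0.93, adjusted p = 0.331), and Pdzk1, a scaffold for apical transporters, at 307 ± 99.98 and 158 ± 21.7 CPM (-0.96, adjusted p = 0.327). Gpbar1, which encodes the membrane receptor TGR5, had 2 counts over the DSS libraries and 1 over the DSS_CA libraries, so that no difference could have been detected at this depth.

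**Figure D4:**
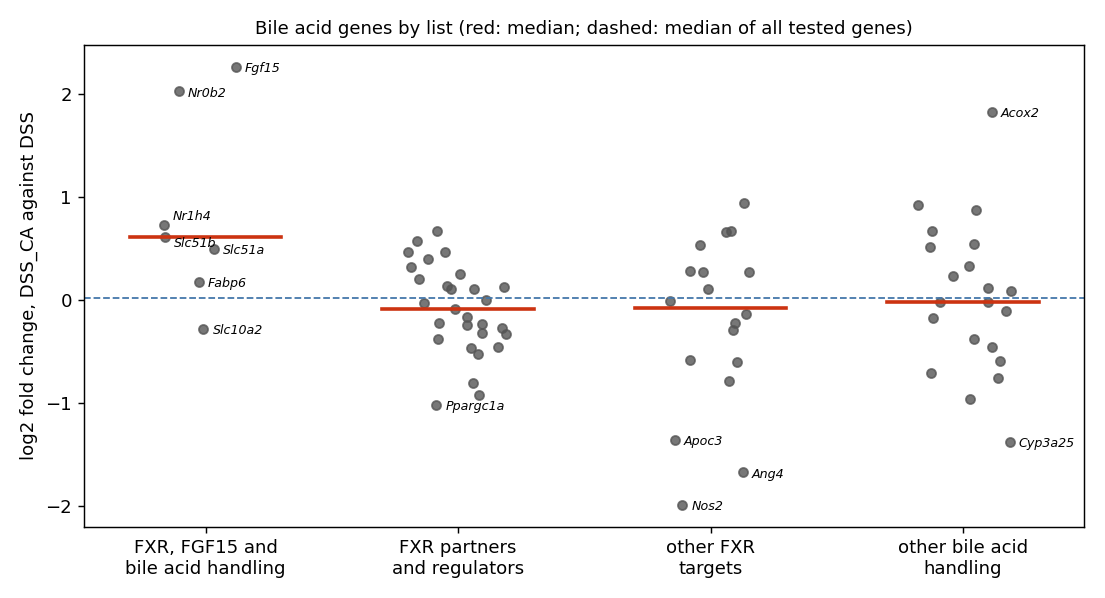
Log2 fold change of each tested gene in the 4 lists (grey points), with list medians in red and the median of all 9913 genes as a dashed line. Medians are 0.62 for the 7 genes (-0.00735 without DSS_CA 3) and between -0.08 and -0.01 for the other lists with all libraries.

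The summed level of 16 markers of absorptive enterocytes, the cells that handle bile acids in the ileum, was 39439 to 80229 CPM in DSS and 35724 to 99321 CPM in DSS_CA. It was highest in DSS_CA 3, but Fabp2 and Apoa1, which bind fatty acids and form lipoproteins, made up 67552 CPM of it there. Without these 2 genes the remaining 14 markers summed to 34283 CPM in DSS 2, the highest, 31768 CPM in DSS_CA 3 and 20671 CPM in DSS 3, the lowest. Of the 16 markers, 5 were lowest or second lowest of all libraries in DSS_CA 3, among them Alpi, Vil1, Anpep and Treh, and 7 were highest or second highest. The markers thus did not move together in that library. With every library scaled to the sum of all 16, the median log2 fold change of all genes was 0.27, against 0.02 in the main fit. Fgf15 and Nr0b2 then had log2 fold changes of 2.68 and 2.40 (adjusted p = 0.358 and 0.414 by edgeR). Both values exceeded the median of 0.27. Markers of other cell types also differed between the groups. All 11 tested markers of T and NK cells had fitted changes below 0 (median -1.90), 1 of them was called lower, and their sum was 615 to 2135 CPM in DSS against 117 to 1132 CPM in DSS_CA. The sums did not overlap between groups for markers of B and plasma cells (31.5 to 71.5 against 7.55 to 22.5 CPM), myeloid cells (22.4 to 28.9 against 7.78 to 19.0 CPM), tuft cells (29.2 to 45.1 against 16.5 to 27.7 CPM) and enteroendocrine cells (235 to 335 against 155 to 211 CPM), each lower in DSS_CA. The gap in the myeloid sums depended on Lyz2, the only tested member of that list. Lyz2 held 12.9 of 22.4 CPM in DSS 3 and 1.32 of 16.0 CPM in DSS_CA 1. Without Lyz2, DSS_CA 1 would lie above DSS 3. Of the other members, Itgam had 393 counts in DSS and 438 in DSS_CA, and S100a8 had 2 and 5. The rest had fewer counts in DSS_CA, and a change in myeloid cells was not tested. Mitochondrial genes took 16.2% to 27.7% of counts in DSS and 9.72% to 20.5% in DSS_CA. The part of these shifts in the Fgf15 and Nr0b2 values was not tested.

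For 3 of the genes, those whose log2 levels followed them most closely over the 8 libraries were sought among 9906 others, as a description with no test because they were picked as the highest. Fgf15 was most like Tbc1d2 (Pearson r = 0.967, Spearman rho = 1.0), Egln3, an oxygen-sensing prolyl hydroxylase (r = 0.965, rho = 0.929), and Agpat5, an acyltransferase of phospholipid synthesis (r = 0.950, rho = 0.952). These rank with it but varied less: Egln3 averaged 28.0 CPM with DSS alone and 59.4 CPM with cholic acid added, and Tbc1d2 averaged 4.403 and 5.90 CPM. Nr0b2 was most like Prep, a prolyl endopeptidase (r = 0.973, rho = 0.952), Mars2, a mitochondrial methionyl-tRNA synthetase (r = 0.972, rho = 1.0), and C2cd2 (r = 0.964, rho = 0.952). Nr1h4 was most like Mtx2, a mitochondrial outer membrane protein (r = 0.992, rho = 0.952), Mettl5, an RNA methyltransferase (r = 0.987, rho = 1.0), and Tasp1, a threonine protease (r = 0.983, rho = 0.952), and all 3 were highest in DSS_CA 3, as Nr1h4 was. The 8 points share their libraries, which differ in mean counted gene length as given above.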

How the data were processed

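RNA of 8 libraries was sequenced after preparation with a stranded total RNA kit, per the labels' protocols. The deposited tables list, per the file headers, the raw count of each Ensembl gene beside its FPKM. The submitters' processing notes name StringTie, HISAT2 and, as builds, mm10 and GRCm38, without versions. How reads were counted, including annotation and strand, is not given in the sources used here. Deposited FPKM values divide the count by a fixed gene length and the total count; the implied length agreed within 1% over libraries for 17718 of 17718 genes. Without a known strand setting, reads of Fgf15 and Slc51b cannot be told from those of overlapping genes on the other strand (29 counts of Gm26793 and 126 of Rasl12 in all libraries).

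Counts were compared with edgeR 4.0.16 (quasi-likelihood test, TMM, group as the only term; R 4.3.3), two-sided, adjusted by Benjamini-Hochberg over all 9913 genes at 0.05. The fit was also run on simulated counts, drawn independently for each library with the spread that this fit gave each gene. The simulated libraries did not differ in counted gene length, so the run cannot show how the fit behaves where libraries do. SE is the log2 fold change over the square root of F, and 95% intervals use the t distribution with the degrees of freedom of the test. Alternatives were DESeq2 1.42.0, limma 3.58.1 voom, other scalings and filters, a gene length offset, a replicate block and left-out libraries. Motifs and tables were handled in scipy 1.17.1, pandas 2.3.3 and numpy 2.4.6 under Python 3.11.15.

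All 7 genes were named, together with the 3 members of smallest p in each pathway list, the 3 genes most like Fgf15, Nr0b2 and Nr1h4, and fixed segment and liver markers. Rxra, Cyp7a1, Cyp8b1, Gpbar1, Fgfr4 and Klb were named after their values were seen. Genes and lists were chosen with earlier results of these data known.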

Additional observations from a re-analysis of the deposited data

Results flagged for a closer look

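In groups of 4 libraries, 1 library was far from the 3 others for 2 genes, both in DSS_CA 3. Slc51b was at 1055 CPM there, with a gap to the next library of 0.916 of the range of its group. Fabp6 was at 2181 CPM, with a gap of 0.927 of the range. The gap had to exceed 0.829, which chance gives in about 1 in 20 groups of 4 normally distributed values. The CPM were compared without logs and their distribution was not examined, so this rate may not hold here. In all, 14 groups were examined. DSS_CA 3 is also among the libraries with the shortest counted genes and has the highest sum of 16 enterocyte markers, 67552 of 99321 CPM from Fabp2 and Apoa1, while 5 of the 16 are lowest or second lowest there. The part of these shifts in the values was not tested.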

How the results depend on the processing

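With all libraries edgeR called 4 genes higher and 9 lower in DSS_CA. The counts were 7 and 20 with RLE size factors, 51 and 169 with DESeq2, 11 and 23 with limma-voom, 18 and 61 with no filter, 17 and 48 with a gene length offset, and 234 and 421 without DSS 2, DSS 3 and DSS_CA 3. They were 0 and 0 with enterocyte scaling (556 genes at an unadjusted p below 0.05) and 0 and 0 without DSS 4 and DSS_CA 4 (322 genes), the latter chosen after seeing the data. With 1 library left out they lay between 0 and 19 higher and between 4 and 65 lower, the highest without DSS_CA 3. With no filter 1 gene of the bile acid transport list was called, Acox2 (log2 fold change 1.89, adjusted p = 0.0434). Over 19 alternatives Fgf15 lay between 1.73 and 2.68 and Nr0b2 between 1.48 and 2.40. Fgf15 passed the threshold with DESeq2 (2.24), no filter (2.33) and the replicate block, and Nr0b2 with DESeq2 (1.998) and without DSS_CA 3 (2.24). Slc10a2 passed only without DSS 2, DSS 3 and DSS_CA 3 (-1.43). Slc51b and Fabp6 turned below 0 with limma-voom (-0.074 and -0.024) and without DSS 2, DSS 3 and DSS_CA 3 (-0.22 and -0.091); the cause was not tested. With 1 library left out, Nr1h4 lay between -0.00735 and 0.99, Slc51a between 0.32 and 0.70, Slc51b between -1.04 and 0.97, Fabp6 between -0.70 and 0.46 (-0.054 without DSS 1) and Slc10a2 between -0.85 and 0.18. Same-numbered libraries correlated at 0.752, -0.344, 0.105 and 0.197 in their deviations from the group means, so the numbers were not taken to pair them. A replicate block gave 14 genes higher and 51 lower, Fgf15 at 2.27 (adjusted p = 0.0315), Slc51b at -0.11 and Fabp6 at -0.036. Upper quartile scaling and filterByExpr changed no call of the 7 genes. Counting depth limits Nr0b2 most, with 15 to 33 counts per DSS library.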

Other observations

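The receptor of FGF15 was examined after its values were seen. Fgfr4, which encodes the FGF15 receptor, was below the level needed for the test. DSS 1 to 4 held 39, 8, 39 and 46 counts of it and DSS_CA 1 to 4 held 140, 105, 43 and 156, or 2.38, 0.610, 2.97 and 2.59 against 7.395, 6.64, 4.396 and 8.503 CPM. The groups did not overlap in CPM, as for 3.24% of the 9913 tested genes, which do not include Fgfr4. With no filter on low genes the log2 fold change was 1.72 (SE 0.471, edgeR adjusted p = 0.120) and was not called. Klb, which encodes the coreceptor β-Klotho, had 15 counts in the DSS libraries and 5 in the DSS_CA libraries.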
